A study of Mus musculus with 23 samples.

Results

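The receptors that carry appetite signals into the brain were followed here as 10 genes: those for leptin (Lepr), insulin (Insr), ghrelin (Ghsr), glucagon-like peptide 1 (Glp1r), melanocortins (Mc3r and Mc4r), neuropeptide Y (Npy1r and Npy2r) and orexin (Hcrtr1 and Hcrtr2). They were found by symbol in the array annotation and looked up by transcript identifier in the deposited log2 table. All 10 genes had a row there, 12 of the 31395 transcript rows, because Lepr had 3 (transcript variants NM_146146, NM_010704 and NM_001122899). The rows rest on 18 probe sequences and 21 spots, and all 21 spots passed the study's filter on dim spots. The samples were total RNA from female mice of the C57BL/6 strain, aged 5 weeks at the start. The lean group was given standard chow (SC) for 8 weeks, and the obese group could choose freely between SC and a chocolate mixture (CM) over the same time. All mice went through an 11-day battery of behavioral tests before the frontal cortex (FC), striatum (ST) and a further region, abbreviated HT, were dissected. Each region and diet had 4 arrays, except FC on CM with 3, and the same mouse gave all regions. SC mice are named L52, L54, L56 and L58, and CM mice O52, O54, O56 and O58.

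Leptin, insulin, ghrelin and glucagon-like peptide 1 reach the brain from fat, pancreas, stomach and gut and report energy stores or a meal. In the hypothalamus they act on neurons that release melanocortins, which lower food intake through MC3R and MC4R, or neuropeptide Y, which raises it through receptors such as NPY1R, while NPY2R sits largely on nerve endings and restrains release. Orexin neurons of the lateral hypothalamus promote wakefulness and feeding through HCRTR1 and HCRTR2. Several of these receptors are also made in cortex, striatum or thalamus.

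Each 1-color array measured spot brightness, and values below are normalized log2 levels, so that a difference of 1 is a 2-fold change. Levels of different probe sequences are on separate scales and were never set against each other. A spot is called well above background by the scanner software, and 36432 to 42261 of 59305 spots were so on each array. Arrays were hybridized on 3 slides that were not balanced: all CM arrays of ST lay on slide 1, of HT on slide 2 and of FC on slide 3. SC arrays were spread unevenly, with 3 of FC and 1 of ST on slide 1. Slide 2 held 1 of FC, 2 of ST and 1 of HT, and slide 3 held 1 of ST and 3 of HT. On SC, HT and FC thus shared only slide 2, with 1 array each, and on CM each region had its own slide. A term for the slide passed an adjusted p of 0.05 in 8.13% of all rows and in 1 of the 12 receptor rows, Lepr NM_010704 (F = 11.0, adjusted p = 0.016). The number of arrays limits the precision, and nothing beyond their mouse numbers says how samples of 1 mouse were handled, so p-values measure the spread between these samples.

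The sample labels call the HT tissue thalamic, while the treatment text names the hypothalamus, so its markers were examined. Of 12 thalamus markers, 12 were higher in HT than in FC on SC (median log2 difference 3.37). Of 15 measured hypothalamus markers, 11 were higher and 2 lower (median 2.54, against 0.02 over all rows). The orexin precursor Hcrt reached 15.81 ± 1.71 in HT on SC and 8.30 ± 0.82 in FC (SD, n = 4 each). The HT samples thus carried markers of both regions, and HT is used below only as the study's abbreviation. The mix differed between animals: on SC the mean level of the hypothalamus list was 9.86 in L52, 8.75 in L54, 10.58 in L56 and 11.89 in L58, and that of the thalamus list was 11.78, 12.15, 11.61 and 10.63. In bulk tissue, fewer cells of a type and less RNA per cell cannot be told apart. Other samples stood apart as well. The ST sample of L52 had a hypothalamus list level of 10.06 against at most 7.91 in the other ST arrays on SC, the ST sample of L54 had the highest cortex level of ST (9.83), and the ST sample of O58 had a choroid plexus list level of 12.52 against at most 8.51 in the rest of its group.

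**Figure D1:**
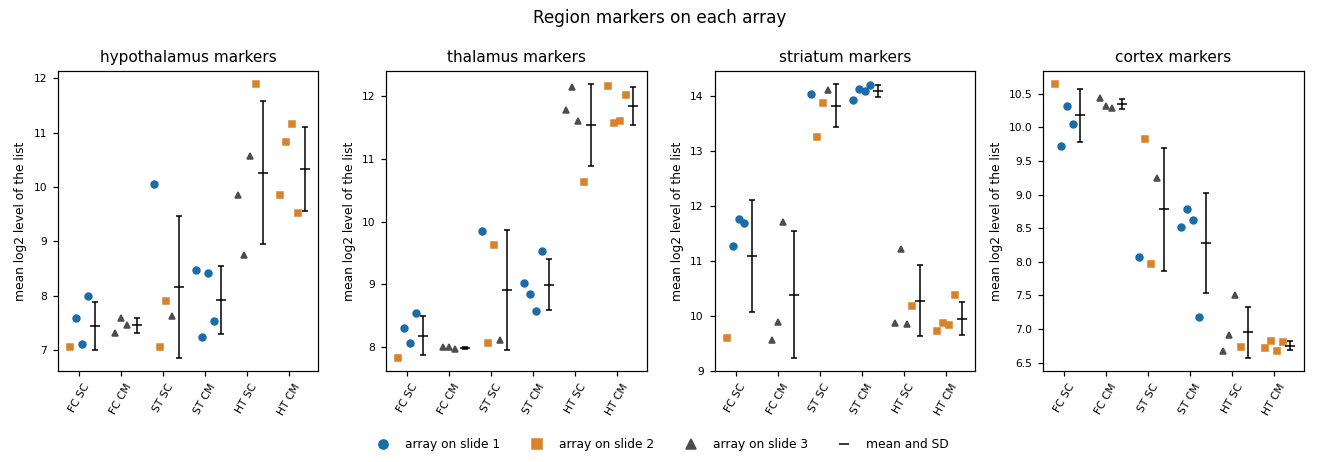
Mean log2 level of 4 lists of region markers (y axis) on each array by region and diet (x axis). Points are single arrays, shaped and colored by slide, and bars are the mean and SD; the HT arrays are high for both thalamus (10.63 or more) and hypothalamus (8.75 or more) markers.

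Several rows average more than 1 probe sequence, and those of Lepr and Glp1r are shown here. The Lepr row NM_010704 holds A_55_P2177910, printed as 2 spots, at chr4:101452666-101452725 of the array's mm9 annotation (plus strand, from base 2697 of the transcript), and A_55_P2177911, printed as 1 spot, at chr4:101464615-101464674 (plus strand, from base 3158). They are shown because they disagree on diet and region. The first 30 bases of the former are given, and none is in capitals:
A_55_P2177910: aattccctcggcgcttcccttgtgaatttt
A_55_P2177911: ttgggacgatgttccaaaccccaagaattg
Both Glp1r sequences lie in 1 place, chr17:31073256-31073315 (A_55_P2016471) and chr17:31073261-31073320 (A_55_P2132089), plus strand, from bases 1280 and 1285 of the transcript. They share 55 positions and differ at 3 of them, C3T, T6C and G12A, counted from 1 at the 5′ end of A_55_P2132089 with the base of A_55_P2016471 first. Their first 30 bases are shown with the differing bases in capitals:
A_55_P2016471: acttgaaCatTcagagGgactgcagcatga
A_55_P2132089: aaTatCcagagAgactgcagcatgaagccc
The remaining rows rest on 1 sequence each, or on overlapping ones (Hcrtr1), on 2 (Npy2r) or on 3 (Insr) separate ones.

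Between regions, the receptor rows were compared on each diet with limma fitted to all rows. On SC, HT was higher than FC in 5 of 12 rows (Lepr NM_010704, Ghsr, Glp1r, Mc3r and Npy2r), against 22.8% of all rows, and lower in 2 (Insr and Npy1r), against 20.4%. HT was higher than ST in 3 rows (Ghsr, Mc3r and Hcrtr1; 10.7% of all rows) and lower in none (10.8%). ST was higher than FC in 1 row (Mc3r; 7.71%) and lower in 1 (Npy1r; 7.22%). The median difference of the 12 rows was 0.42 for HT against FC (0.02 over all rows), 0.47 for HT against ST (0.03) and -0.02 for ST against FC (0.00). On CM, HT was higher than FC in 5 rows (29.5% of all rows) and lower in 2 (28.2%), higher than ST in 5 (30.4%) and lower in 1 (25.9%), and ST was higher than FC in 3 (30.5%) and lower in 5 (30.1%). When the slide entered the fit as a fixed term, 4 rows passed for HT against FC on SC (Ghsr, Mc3r, Npy1r and Npy2r; 14.8% of all rows), 2 for HT against ST (Ghsr and Mc3r; 15% of all rows) and 3 for ST against FC (Ghsr, Mc3r and Npy1r; 10.9% of all rows). Ghsr was not well above background on any ST or FC array. On CM the calls that passed with this term were Mc3r and Npy1r for HT against FC, Ghsr for HT against ST and Npy1r for ST against FC, and every other CM call named below was lost with it.

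**Figure D2:**
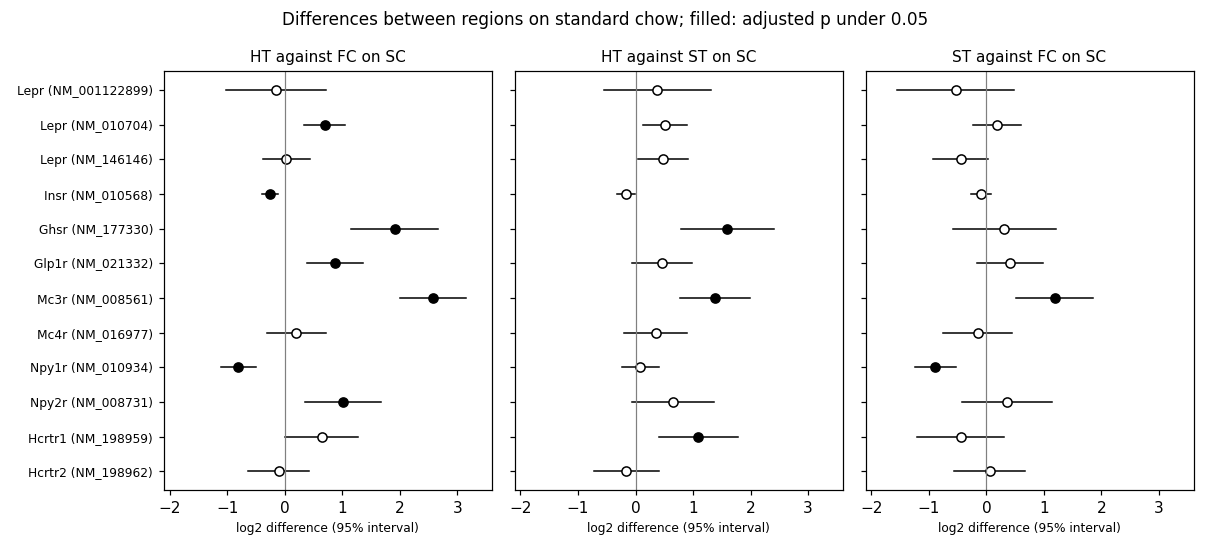
Log2 differences between regions on standard chow (x axis) of the 12 receptor rows (y axis), with 95% intervals; filled points passed an adjusted p of 0.05. Mc3r has the highest estimates in the first and the last panel (2.57 and 1.19), and Npy1r the lowest in both (-0.81 and -0.89).

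Among receptors for circulating hormones, the ghrelin receptor Ghsr, a constitutively active receptor of arcuate neurons, was brightest in HT (sequence at chr3:27276818-27276877, mm9). On SC its log2 level was 5.36, 4.85, 5.13 and 6.36 in HT of L52, L54, L56 and L58, 2.64, 3.15, 3.39 and 3.87 in FC, and 5.11, 3.32, 3.51 and 3.82 in ST. On CM it was 4.75, 5.19, 5.91 and 4.67 in HT of O52, O54, O56 and O58, 3.68, 3.66 and 3.84 in FC, and 3.49, 3.45, 3.53 and 3.63 in ST. All HT arrays lay above all FC arrays, while 1 ST array, L52, reached into the HT range. That ST sample had a hypothalamus list level of 10.06, against at most 7.91 in the other ST arrays on SC. The part of these markers in its Ghsr value was not tested. The spot was well above background on 3 of 4 HT arrays on SC and 2 of 4 on CM, and on none in FC or ST, so folds are bounds set against the lowest level well above background on each array or the spot's own level, if higher. That lowest level is not a limit for every spot. In ST of L52 it was 4.34, yet Ghsr read 5.11 there and was not well above background. Folds given as at least are bounds only on that setting, here and below. HT was at least 2.22-fold above FC (adjusted p = 0.00032) and at least 2.11-fold above ST (adjusted p = 0.0050) on SC. On CM it was at least 1.75-fold above ST (adjusted p = 1.0e-05). Over FC on CM it passed as well (adjusted p = 2.4e-05; 0.22 with the slide term), but no bound is given, because the lowest level well above background on the FC array of O54 was -0.24, against 3.63 or more on the other arrays. The order of ST and FC could not be read, since neither was measured above background. Nmur2, a neuromedin U receptor, and Celf6 were among the most similar profiles of 21221 named rows, with a root mean square difference of 0.33 and 0.38 over the 23 arrays, where the profile of Ghsr itself had a root mean square of 0.95.

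The leptin receptor gave no single picture. On A_55_P2177910 the 8 arrays of slide 1 lay between 9.98 and 10.74 and the 15 arrays of slides 2 and 3 between 11.26 and 12.06. Slide 1 held no HT array and no FC array on CM. In ST on SC, L52 on slide 1 read 9.98, whereas L54, L56 and L58 on the other slides read 11.70, 11.62 and 11.75. In FC on SC, L52 on slide 2 read 11.54, whereas L54, L56 and L58 on slide 1 read 10.65, 10.32 and 10.74. Arrays of the same region and diet, in FC and in ST on SC, fell on either side of the gap according to their slide. A_55_P2177911 showed no such split. It read 6.73, 6.12, 6.37 and 6.67 in FC, 6.45, 5.89, 5.00 and 5.33 in ST and 6.46, 6.12, 6.34 and 6.85 in HT on SC. The row's rise in HT over FC on SC, 0.70 ± 0.17 (SE; adjusted p = 0.0028), was 1.08 ± 0.23 on the former sequence (adjusted p = 0.00078) and -0.05 ± 0.29 on the latter (adjusted p = 0.90), which in turn was higher in HT than in ST, by 0.95 ± 0.30 (adjusted p = 0.033). On CM the row went the other way, with HT below FC by 0.43 ± 0.12 (adjusted p = 0.0031). The SC difference was 0.08 ± 0.26 once the slide was a fixed term (adjusted p = 0.89), and within slide 2, which held 1 array of each, it was 0.16.

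**Figure D3:**
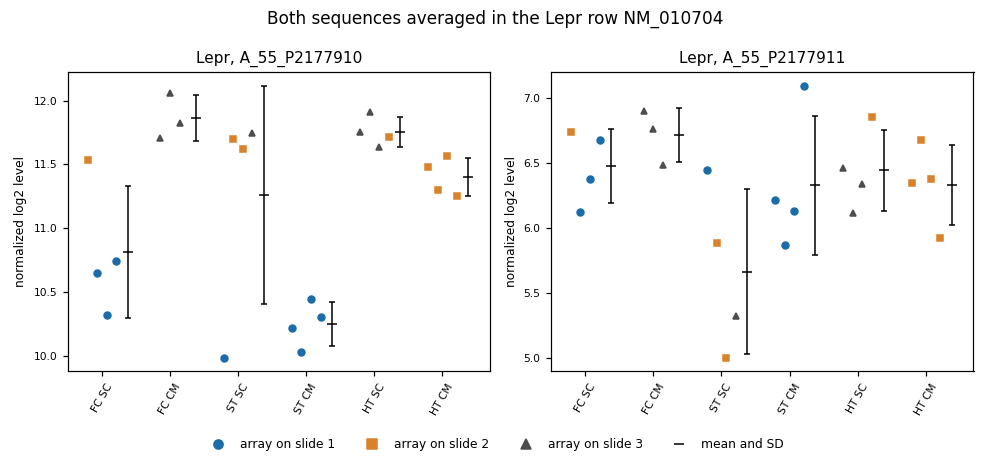
Normalized log2 levels (y axis) of both probe sequences of the Lepr row NM_010704 on each array by region and diet (x axis); points are shaped and colored by slide, and bars are the mean and SD. On A_55_P2177910 the slide 1 arrays end at 10.74 and the others begin at 11.26; on A_55_P2177911 the slides overlap.

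The other Lepr variants were near background. NM_146146, the variant of the long signalling form, was well above background on 1 of 4 FC and 3 of 4 HT arrays on SC and on no ST array of either diet, with group means from 4.29 to 5.01. On CM it was lower in ST than in FC (at least 1.5-fold, adjusted p = 0.00034) and than in HT (at least 1.28-fold, adjusted p = 0.0052), and on SC no region difference passed. NM_001122899 read 4.22, 4.36, 4.36 and 6.49 in ST on CM, and the high array was O58, the one with the choroid plexus markers. The choroid plexus is a known site of short leptin receptor forms, and A_55_P2177911 was also highest in O58 (7.09, against 6.22, 5.87 and 6.13 in O52, O54 and O56). The part of these markers in the values was not tested.

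The insulin receptor Insr, a tyrosine kinase receptor, had the smallest range of the 12 rows, with group means from 7.55 to 7.80. It read 7.68, 7.83, 7.88 and 7.81 in FC and 7.42, 7.59, 7.61 and 7.59 in HT on SC, and these groups did not overlap. HT was lower by 0.26 ± 0.07 (SE; adjusted p = 0.0053). Its 3 sequences disagreed: the difference was -0.53 ± 0.11 on A_55_P2173927 (chr8:3155472-3155531), -0.25 ± 0.11 on A_55_P2172566 (chr8:3154024-3154083) and 0.00 ± 0.09 on A_52_P494514 (chr8:3151667-3151726), and only the first passed (adjusted p = 0.00075, 0.070 and 0.97). The row's difference was -0.17 ± 0.12 with the slide term (adjusted p = 0.44). The glucagon-like peptide 1 receptor Glp1r, a receptor of gut and brainstem satiety signals, read 5.38, 5.09, 4.69 and 5.19 in FC and 5.88, 6.45, 5.69 and 5.45 in HT on SC. HT was higher by 0.87 ± 0.23 (adjusted p = 0.0055), and by 0.12 ± 0.41 with the slide term (adjusted p = 0.90). On CM, HT read 5.78, 5.45, 5.41 and 5.55 and FC 5.68, 5.74 and 5.91, and the difference of -0.25 ± 0.16 did not pass (adjusted p = 0.18).

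Of the melanocortin receptors, Mc3r, which adjusts feeding to energy stores and is also an autoreceptor of melanocortin neurons, had the clearest order of regions (sequence at chr2:172076555-172076614). On SC it read 9.52, 9.93, 8.98 and 10.02 in HT, 8.38, 7.74, 8.12 and 8.39 in ST and 7.48, 6.63, 6.52 and 7.35 in FC. On CM it read 9.34, 9.30, 9.90 and 9.16 in HT, 8.32, 8.11, 8.39 and 8.38 in ST and 7.26, 7.48 and 7.48 in FC. No HT array reached down to an ST array and no ST array to an FC array on either diet. HT exceeded FC 5.95-fold (2.57 ± 0.27 on the log2 scale, adjusted p = 7.1e-07) and ST 2.61-fold (1.38 ± 0.29, adjusted p = 0.0017), and ST exceeded FC 2.28-fold (1.19 ± 0.32, adjusted p = 0.018), all on SC. The last difference did not pass without the FC array of L56 (0.89, adjusted p = 0.095) or without the ST array of L56 (1.02, adjusted p = 0.093). All 3 passed with the slide term (adjusted p = 0.0019, 0.025 and 0.030). Within slide 2, which held 1 HT, 1 FC and 2 ST arrays on SC, they were 2.54, 2.09 and 0.45. The HT array there was L58, the SC animal with the highest hypothalamus list level. HT against ST was 1.09 within slide 3 (3 HT arrays and 1 ST array). ST against FC was 1.54 within slide 1 (1 ST array and 3 FC arrays). On CM the differences were 2.06 ± 0.18, 1.17 ± 0.19 and 0.90 ± 0.20, with an adjusted p of 0.0079, 0.098 and 0.38 when the slide term was added. The nearest profiles were those of Fbln5, which encodes an elastic fiber protein, Rhd, a red cell membrane protein related to ammonium channels, and Cacna2d2, a calcium channel subunit, at root mean square differences of 0.40, 0.40 and 0.41.

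Mc4r, the receptor whose loss causes overeating and obesity, differed less between regions. It read 6.67, 6.20, 6.64 and 7.18 in HT, 6.42, 6.13, 6.35 and 6.03 in ST and 6.47, 5.79, 6.50 and 6.77 in FC on SC. The groups overlapped, and the difference between HT and FC was 0.20 with a 95% interval from -0.31 to 0.71 (adjusted p = 0.54). On CM it read 6.48, 6.95, 7.10 and 6.76 in HT and 6.10, 6.31 and 5.85 in FC, and HT was higher by 0.76 ± 0.17 (adjusted p = 0.00060), or by 0.28 ± 0.36 with the slide term (adjusted p = 0.69).

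The neuropeptide Y receptors went opposite ways between FC and HT. Npy1r (chr8:69230632-69230691), a receptor of cortical and hypothalamic neurons, read 11.23, 10.62, 10.82 and 10.89 in FC on SC against 9.76, 10.48, 9.81 and 9.66 in ST and 9.76, 10.14, 10.10 and 10.05 in HT. Every FC array lay above every ST and HT array on both diets, and ST and HT overlapped. HT was 1.75-fold lower than FC (-0.81 ± 0.15, adjusted p = 0.00020) and ST 1.86-fold lower (-0.89 ± 0.17, adjusted p = 0.0027) on SC. On CM the differences were -1.10 ± 0.10 and -1.32 ± 0.11. The slide term gave -0.94 ± 0.26 and -1.11 ± 0.18 on SC (adjusted p = 0.023 and 0.00097). Within slide 2, with 1 HT, 1 FC and 2 ST arrays on SC, the differences were -1.18 and -1.09. Without the ST array of L56, the difference between ST and FC on SC was -0.56 and did not pass (adjusted p = 0.080).

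Npy2r, the presynaptic receptor, read 6.51, 6.5, 6.77 and 7.44 in HT, 6.74, 4.94, 6.64 and 5.58 in ST and 6.0, 5.35, 5.43 and 6.38 in FC on SC. On CM it read 6.75, 6.92, 6.97 and 6.46 in HT, 6.81, 6.62, 6.42 and 6.47 in ST and 5.23, 5.02 and 5.67 in FC. HT lay above FC on both diets, whereas ST reached from below the FC values into the HT range on SC and overlapped with HT on CM. HT exceeded FC by 1.01 ± 0.32 on SC (adjusted p = 0.015) and by 1.56 ± 0.21 on CM (adjusted p = 3.4e-06), and ST exceeded FC on CM by 1.33 ± 0.23 (adjusted p = 5.4e-05). The SC difference was 0.73 and did not pass without the FC array of L56 (adjusted p = 0.12). The SC difference was 1.62 ± 0.38 on A_51_P311919 (chr3:82342675-82342734, adjusted p = 0.0019) and 0.43 ± 0.29 on A_55_P1977676 (chr3:82343900-82343959, adjusted p = 0.25), a sequence that was well above background on 1 of 4 FC arrays. The row's SC difference was 1.75 ± 0.56 with the slide term (adjusted p = 0.044), and the CM differences over FC were 0.86 ± 0.51 in HT and 0.47 ± 0.60 in ST (adjusted p = 0.31 and 0.77). Efcab1, the transcript C530044C16Rik and Gaa, a lysosomal glucosidase, had the nearest profiles (root mean square differences of 0.32, 0.34 and 0.34).

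Of the orexin receptors, Hcrtr1 (overlapping sequences at chr4:129807461-129807520 and chr4:129807469-129807528), which prefers orexin A, read 10.36, 9.81, 9.93 and 10.54 in HT, 8.97, 9.69, 8.62 and 9.11 in ST and 9.41, 9.01, 9.77 and 9.31 in FC on SC. HT lay above both other regions, and ST and FC overlapped. HT exceeded ST 2.13-fold (1.09 ± 0.33, adjusted p = 0.020), and its 0.64 ± 0.31 over FC did not pass (adjusted p = 0.098). The difference from ST did not pass without the ST array of L52 (0.90, adjusted p = 0.085) or of L56 (0.56, adjusted p = 0.28), nor with the slide term (1.18 ± 0.46, adjusted p = 0.10). Within slide 2 (1 HT array and 2 ST arrays) it was 1.39, and within slide 3 (3 HT arrays and 1 ST array) it was 0.93. On CM, HT again exceeded ST (1.07 ± 0.22, adjusted p = 0.00029), and ST was below FC (-0.79 ± 0.22, adjusted p = 0.0046), an ST group in which O58 read 7.86 and the others 9.05, 9.11 and 9.03. All 4 lay below the FC arrays on CM (9.62, 9.72 and 9.58). O58 also had the lowest cortex list level of ST (7.17). In ST on SC this list level was 8.08, 9.83, 7.96 and 9.25 in L52, L54, L56 and L58. The part of these markers in the Hcrtr1 values was not tested. The nearest profiles were those of Spin2, Nudt17 and Mast1 (root mean square differences of 0.27, 0.28 and 0.28). Hcrtr2 (chr9:76073799-76073858), which binds both orexins, was well above background on only 2 of 23 arrays, both HT on CM (O54 and O56), so no regional order could be read for it on SC. On CM the row passed for HT above FC (adjusted p = 0.0096) with none of the 3 FC arrays well above background, so no fold is given, and with the slide term the difference was -0.03 ± 0.40 on the log2 scale (adjusted p = 0.98).

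**Figure D4:**
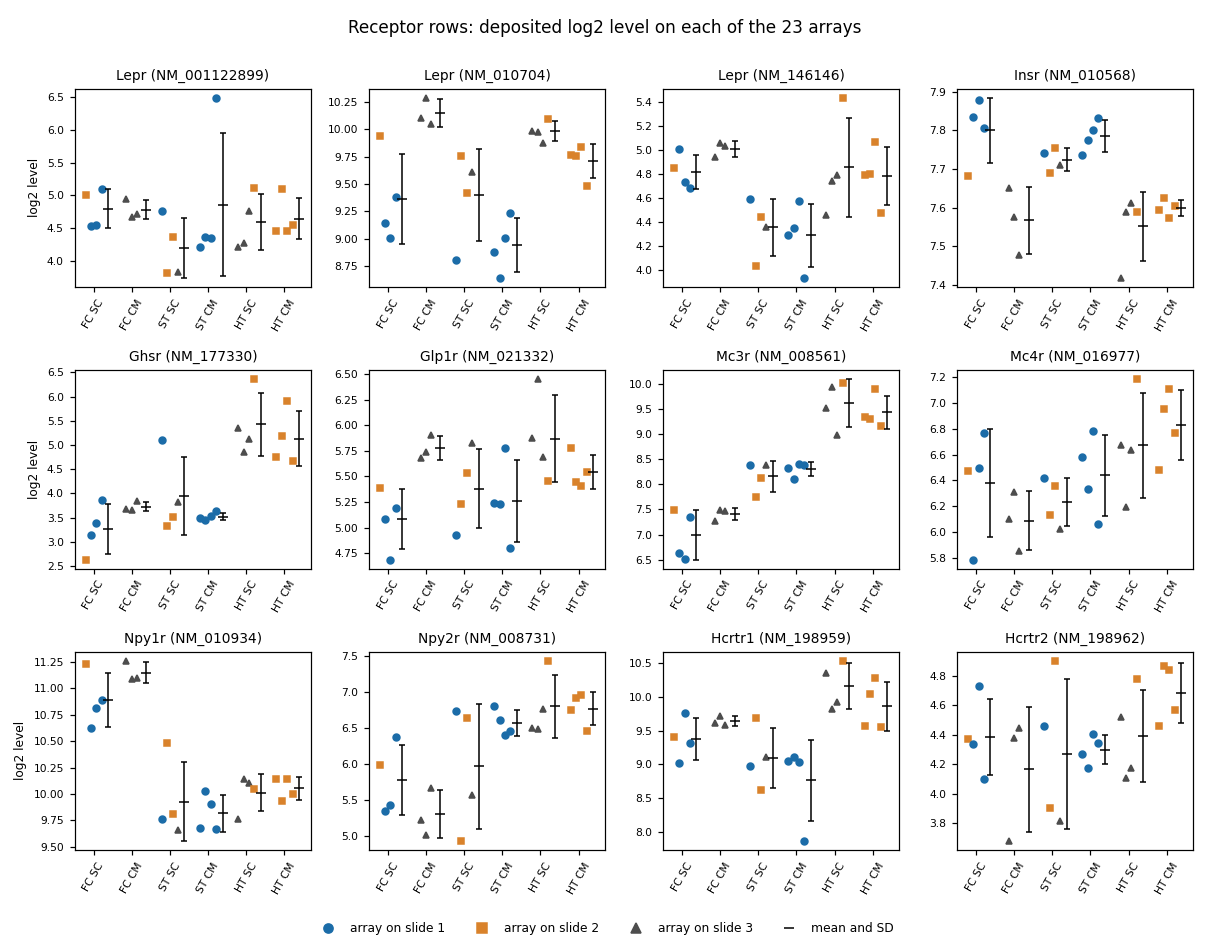
Deposited log2 level (y axis) of each of the 12 receptor rows on each array by region and diet (x axis), with points shaped and colored by slide and bars for the mean and SD; each panel has its own scale. Mc3r falls from HT (8.98 or more) over ST (7.74 to 8.39) to FC (7.48 or less), and the Lepr row NM_010704 is lowest where the points are from slide 1.

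Within HT, some receptor rows varied with the marker mix of the sample, a relation looked for after the values had been seen. L58 was the SC animal with the highest hypothalamus list level and the lowest thalamus list level, and O56 had the highest hypothalamus level on CM (11.16). Over the 8 HT arrays, each row was set against both marker lists, 24 relations in all. Npy2r rose with the hypothalamus list (Pearson r = 0.92, exact permutation p = 0.00079, adjusted p = 0.019; Spearman rho = 0.95, exact permutation p = 0.0011, adjusted p = 0.027), with r = 0.91 without the 2 arrays farthest from the median of the list. Mc4r (r = 0.90, exact permutation p = 0.0033, adjusted p = 0.026) and Ghsr (r = 0.85, exact permutation p = 0.0061, adjusted p = 0.029) rose with it as well. Their rho of 0.83 and 0.86 had adjusted exact permutation p of 0.074 each, and r was 0.71 and 0.78 without the 2 farthest arrays. Glp1r ran against it (r = -0.80, exact permutation p = 0.013, adjusted p = 0.044; rho = -0.76, adjusted p = 0.085; r = -0.62 without the 2 farthest arrays). Mc3r (r = 0.21), Npy1r (r = 0.02) and Insr (r = 0.16) did not pass (adjusted exact permutation p = 0.74, 0.96 and 0.85). Against the thalamus list, r was -0.89 for both Ghsr and Npy2r and -0.80 for Hcrtr1 (adjusted exact permutation p = 0.026, 0.029 and 0.036), and their rho did not pass (adjusted exact permutation p = 0.075, 0.075 and 0.085). Without the 2 arrays farthest from the median of the thalamus list, r was -0.70 for Ghsr, -0.85 for Npy2r and -0.61 for Hcrtr1. Each diet had 4 HT arrays and slides 2 and 3 had 5 and 3, too few for a value within them.

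The study compared the diets over the whole transcriptome. It also selected genes by correlation with body weight or behavior, which was not examined here. No receptor row passed the study's thresholds for differential expression in any region. These were at least 2-fold at an adjusted p under 0.01 in FC (0 of 12 rows, 2.94% of all rows) and ST (0 of 12, 0.602%), and at least 1.5-fold at an adjusted p under 0.05 in HT (0 of 12, 0.178%). At an adjusted p under 0.05 alone, limma called 2 rows higher on CM in FC (Lepr NM_010704 and Glp1r; 15.4% of all rows) and 1 lower (Insr; 13.2%). In ST it called none higher (3.45%) or lower (6.37%), and in HT none higher (0.124%) or lower (0.306%), and 1 row in each had an unadjusted p under 0.05, Lepr NM_010704 in ST and Hcrtr2 in HT. Over the 12 rows the median diet difference reached 0.22 in FC, -0.04 in ST and 0.01 in HT, against -0.04, 0.03 and 0.01 over all rows.

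In FC, Lepr NM_010704 read 9.94, 9.14, 9.0 and 9.39 on SC and 10.10, 10.29 and 10.05 on CM, and the groups did not overlap. CM was 1.88-fold higher (0.91 ± 0.16, SE; adjusted p = 0.00032). The 3 low SC arrays were those of slide 1, and the remaining one, L52 on slide 2, read 9.94, just under the lowest CM array (10.05), all of which lay on slide 3. The difference was 1.23 ± 0.21 on A_55_P2177910 (adjusted p = 0.00026) and 0.28 ± 0.26 on A_55_P2177911 (adjusted p = 0.45). In ST, where the CM arrays lay on slide 1, the difference was -1.19 ± 0.23 on A_55_P2177910 (adjusted p = 0.0048), and 0.82 ± 0.29 on A_55_P2177911, which did not pass (adjusted p = 0.073). Within slide 1, ST of the 4 CM mice and of L52 differed by 0.14 on the row (8.94 and 8.80). The diet difference of the row differed between FC and ST by 1.43 ± 0.24 (adjusted p = 0.00017) and between FC and HT by 1.13 ± 0.21 (adjusted p = 0.00078). Adding the slide term gave a diet difference of 0.30 ± 0.27 in FC and 0.13 ± 0.18 in ST (adjusted p = 0.90 and 1.0).

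Glp1r read 5.38, 5.09, 4.69 and 5.19 on SC and 5.68, 5.74 and 5.91 on CM in FC, without overlap, a 1.70-fold rise (0.77 ± 0.21, adjusted p = 0.011). It was 0.76 ± 0.26 on A_55_P2132089 (adjusted p = 0.031). The overlapping A_55_P2016471 was not well above background on any FC array on SC and was so on 3 of 3 on CM. Without the FC array of L56 the row's difference was 0.57 and did not pass (adjusted p = 0.080), and with the slide term it was -0.08 ± 0.43 (adjusted p = 1.0). In HT the difference was -0.35 (95% interval -0.73 to 0.02, adjusted p = 0.40), and the difference between FC and HT was 1.12 ± 0.28 (adjusted p = 0.0087). Insr read 7.68, 7.83, 7.88 and 7.81 on SC and 7.65, 7.58 and 7.48 on CM in FC, 1.19-fold lower on CM (-0.25 ± 0.06, adjusted p = 0.0057), and -0.16 ± 0.13 with the slide term (adjusted p = 0.89). Its diet difference differed between FC and ST (-0.30 ± 0.10, adjusted p = 0.022) and between FC and HT (-0.28 ± 0.08, adjusted p = 0.022). By sequence, A_52_P494514 was -0.31 ± 0.09 in FC (adjusted p = 0.0098) and -0.29 ± 0.09 in ST (adjusted p = 0.055), A_55_P2173927 was -0.33 ± 0.10 in FC (adjusted p = 0.020) and 0.25 ± 0.11 in ST (adjusted p = 0.16), and A_55_P2172566 was -0.12 ± 0.10 and 0.19 ± 0.11 (adjusted p = 0.41 and 0.29). On the first of these, the differences in FC and ST thus had the same sign. In all, the diet difference differed in 2 of 12 rows between FC and ST (30.1% of all rows), in 3 between FC and HT (20%) and in none between ST and HT (0%), where none of the 12 rows had an unadjusted p under 0.05.

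No slide held FC arrays of both diets, so the slide term rests on the other regions there. With it, limma called 0 of all 31395 rows in each of the 3 diet comparisons. An unadjusted p under 0.05 was seen in 2219 rows for FC (1 receptor row), 1408 for ST (1) and 845 for HT (0). The receptor row was Ghsr in both FC (1.87 ± 0.58) and ST (-1.34 ± 0.40), and it was well above background on no FC or ST array. Within slide 1, the 4 CM arrays of ST had a Ghsr mean of 3.52, and the 1 SC array of ST, L52, read 5.11. Of 8 pituitary markers, Prl, Cga, Tshb, Fshb and Pitx1 were on the array, but their spots did not pass the filter on dim spots. The 3 with a row, Gh, Lhb and Pou1f1, had means of 4.54, 6.27 and 13.23 in FC on SC and of 5.01, 8.25 and 13.70 on CM. Pou1f1 was at 12.95 or more in every region and diet. The mean level of the 3 was 7.79 to 8.56 in FC on SC and 8.84 to 9.13 on CM, and 3 of 3 were called higher (15.4% of all rows). This level also differed between slides: it was 7.79 to 7.90 in the FC arrays of slide 1 and 8.56 in the one of slide 2, and in ST on SC 7.70 on slide 1 against 8.47 to 8.89 on the others. The striatum list level was 9.60, 11.28, 11.77 and 11.70 in FC of L52, L54, L56 and L58 on SC. On CM it was 9.57, 9.90 and 11.71 in FC of O54, O56 and O58. The median diet difference of these striatum markers in FC was -1.06, against -0.04 over all rows, and 1 of 10 was called lower (13.2% of all rows). The part of these in the FC differences was not tested.

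**Figure D5:**
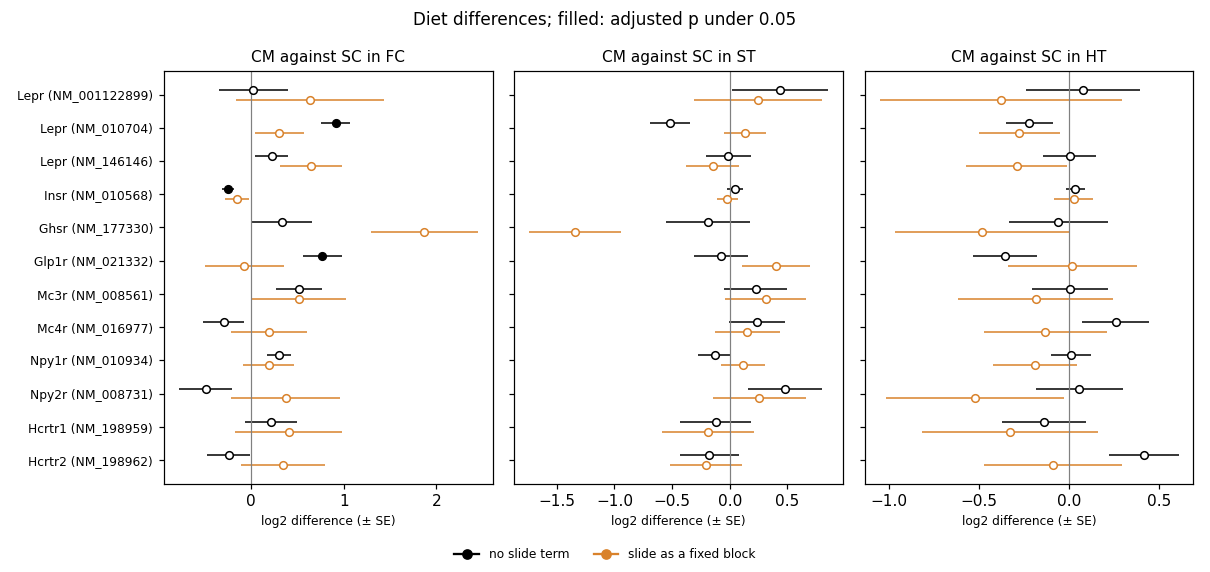
Log2 differences between diets (x axis, CM minus SC, ± SE) of the 12 receptor rows (y axis) in each region, without a slide term (black) and with the slide as a fixed term (orange); filled points passed an adjusted p of 0.05. Filled points are seen only in FC, for Lepr NM_010704 (0.91), Insr (-0.25) and Glp1r (0.77), and none of the orange points is filled.

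In HT the diet differences of the 12 rows lay between -0.35 and 0.41. For Mc3r it was 0.00 (95% interval -0.43 to 0.44), for Mc4r 0.26 (-0.13 to 0.65), for Npy1r 0.01 (-0.22 to 0.24), for Npy2r 0.06 (-0.45 to 0.56), for Hcrtr1 -0.14 (-0.62 to 0.35) and for Lepr NM_010704 -0.22 (-0.49 to 0.05). With the slide term the differences were -0.19 ± 0.43 (SE) for Mc3r, -0.13 ± 0.34 for Mc4r, -0.19 ± 0.23 for Npy1r, -0.52 ± 0.49 for Npy2r, -0.33 ± 0.49 for Hcrtr1 and -0.28 ± 0.22 for Lepr NM_010704, so that for Mc3r, Npy2r and Hcrtr1 a 2-fold fall lies within 2 SE of the estimate. Within slide 2, where the 4 CM arrays can be set against L58 alone, the differences were -0.59 for Mc3r, -0.36 for Mc4r, 0.00 for Npy1r, -0.67 for Npy2r, -0.68 for Hcrtr1 and -1.23 for Ghsr, and L58 was the animal with the highest hypothalamus markers. For Ghsr it was -0.06 (-0.64 to 0.52), over arrays of which 5 of 8 were well above background. In ST the intervals were wider, as for Mc3r (0.22, -0.35 to 0.80), Npy2r (0.48, -0.19 to 1.15) and Hcrtr1 (-0.12, -0.76 to 0.52), and Npy2r on SC was 6.74 and 6.64 in L52 and L56 and 4.94 and 5.58 in L54 and L58. The cortex list level of the same samples was 8.08 and 7.96 in L52 and L56 and 9.83 and 9.25 in L54 and L58. The part of these markers was not tested.

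The ligands of the receptors were on a list of 13 genes, 12 of them with a row. The list also held other appetite peptides, Cartpt and Nucb2, that are not ligands of the 10 receptors. On SC, HT was higher than FC in 5 and lower in 1 of the 12 (22.8% and 20.4% of all rows; median 0.45 against 0.02 over all rows). Hcrt, the ligand of both orexin receptors, was 7.59 ± 1.33 higher (adjusted p = 0.00014) and Cartpt, an anorexigenic peptide, 2.24 ± 0.52 higher (adjusted p = 0.0017). Npy, the ligand of both neuropeptide Y receptors, was lower in HT, at 10.29 ± 0.41 (SD) against 13.27 ± 0.20 in FC, a difference of -2.92 ± 0.28 (adjusted p = 2.2e-07). Pomc, the melanocortin precursor, read 10.32 ± 1.65 in HT and 9.46 ± 0.33 in FC, and Agrp, the melanocortin antagonist, 7.75 ± 2.10 and 6.50 ± 0.17, and neither passed (adjusted p = 0.63 and 0.45). Between diets, 4 ligands were called higher on CM in FC (Ins2, Pyy, Ghrl and Lep) and 0 lower (15.4% and 13.2% of all rows; median 0.03 against -0.04 over all rows). Lep, Ins2 and Pyy differed by 0.52 ± 0.11, 0.80 ± 0.19 and 0.72 ± 0.17 (adjusted p = 0.0024, 0.0044 and 0.0040), and Ghrl, the ghrelin precursor, by 0.53 ± 0.11 (adjusted p = 0.0014). Lep and Pyy were well above background on 1 of 4 FC arrays on SC and 3 of 3 on CM. Their means were 4.63 and 4.99 in FC on SC, 5.18 and 5.67 in FC on CM (slide 3), and 4.60 and 4.93 in ST on CM (slide 1). In ST and HT no ligand was called. With the slide as a fixed term, 0 of all 31395 rows passed for diet in any region, so the diet calls of the ligands were lost.

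Of 26 related receptors, 23 had a row. On SC, 11 were higher and 6 lower in HT than in FC (22.8% and 20.4% of all rows; median 0.49 against 0.02). The calcitonin and amylin receptor Calcr had the largest rise (at least 23.8-fold, since it was not well above background in FC; adjusted p = 6.0e-06), and the cholecystokinin receptor Cckbr the largest fall (-2.46 ± 0.31, adjusted p = 4.9e-06). Against ST, 4 were higher and 2 lower (10.7% and 10.8% of all rows), with Calcr again first (3.46 ± 0.63) and Mchr1, the receptor of melanin-concentrating hormone, last (-1.87 ± 0.20). On CM in FC, 4 were higher and 4 lower (15.4% and 13.2% of all rows; median -0.10 against -0.04), with Mc5r the largest rise (1.43 ± 0.19, adjusted p = 4.4e-05). The galanin receptor Galr1 is counted among the 4 lower ones although it was not well above background on any FC array of either diet. In ST, 2 were lower (6.37% of all rows), Npy4r (-1.18 ± 0.21, adjusted p = 0.0048) and Gcgr, the glucagon receptor (-0.51 ± 0.11, adjusted p = 0.0095), and in HT none was called. None of these diet calls passed with the slide term.

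Signalling and accessory genes, 34 of 34 with a row, split evenly between regions: 10 were higher and 11 lower in HT than in FC on SC (22.8% and 20.4% of all rows; median -0.03 against 0.02). Irs4, an adaptor of the insulin receptor found in the hypothalamus, rose most (2.44 ± 0.34, adjusted p = 1.5e-05), and Mrap, an accessory protein of melanocortin receptors, fell most (-1.36 ± 0.30, adjusted p = 0.0011). On CM in FC, 0 were higher and 2 lower (15.4% and 13.2% of all rows; median -0.06 against -0.04), Enpp1, an inhibitor of the insulin receptor (-0.63 ± 0.15, adjusted p = 0.0040), and Ptpn1, a phosphatase of the leptin and insulin receptors (-0.40 ± 0.10, adjusted p = 0.0048). In ST, 3 were higher (3.45% of all rows), led by Enpp1 (0.52 ± 0.16, adjusted p = 0.049), and 1 was lower (6.37%), Leprotl1 (-0.31 ± 0.08, adjusted p = 0.025). In HT none of the 34 was called, and none of the diet calls in FC and ST passed with the slide term.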

How the data were processed

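Gene expression was measured on 23 1-color Agilent arrays. Scanner files with linear spot intensity were deposited (Feature Extraction version 10.7.3.1 per the file headers), together with a table of log2 levels. To make the latter, the authors corrected background by normexp (offset 0) and normalized between arrays by quantiles. Spots passed if their log2 level exceeded 1.1 times the 95th percentile of negative control log2 levels on 4 or more arrays. Spots with the same transcript identifier were then averaged. Rebuilding all 31395 rows from the scanner files left a difference of at most 5e-09. Probe positions come from the array design and refer to mm9.

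Following the authors' code, limma 3.58.1 (R 4.3.3, statmod 1.5.0) was fitted to all rows with 6 group means, array weights estimated gene by gene, and a random block for the mouse, with Benjamini-Hochberg adjustment over all 31395 rows. Weighted estimates can differ from plain differences of means. The mouse block is a true pairing, since 1 mouse gave all regions, and its consensus correlation was -0.0398. With the slide as the random block it was 0.332. Region differences were called at an adjusted p under 0.05. The receptors, the lists of ligands and other appetite peptides (13 genes), relatives (26), signalling genes (34) and markers, the weights estimator and the tests were chosen with earlier results of these data known. Where a gene had several rows, lists used the brightest. Lists also covered ependyma, blood vessel and red blood cell markers (7, 6 and 6 genes, of which 7, 6 and 5 had a row), of which on SC 1, 1 and 0 were higher and 3, 1 and 0 lower in HT than in FC. Genes named were all receptor rows, the ligands, the called list gene with the largest rise and fall, and the 3 nearest profiles of receptor rows that differed at least 2-fold between regions on SC, of which 1 is not reported here. Alternatives covered the slide, blocks, weights, background, scaling, filter, averaging and each array left out, and the code was tested on simulated data.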

Additional observations from a re-analysis of the deposited data

Results flagged for a closer look

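Of the receptor rows in groups of 4 arrays (60 sets of values), 4 had 1 array far from the other 3, where chance gives about 1 in 20. Lepr NM_001122899 read 6.49 in ST of O58 on CM, and 5.11 in HT of O54 on CM. Hcrtr1 read 7.86 in ST of O58 on CM and was low on both of its overlapping sequences, and that sample also held the highest choroid plexus marker level (12.52). It had the lowest cortex list level of ST as well (7.17, against 8.52, 8.79 and 8.62 in O52, O54 and O56). The part of these markers in the value was not tested. Insr read 7.42 in HT of L52 on SC.

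The diet difference differed between regions in 3 receptor rows. For Lepr NM_010704 it was higher in FC than in ST by 1.43 and than in HT by 1.13 on the log2 scale, and for Glp1r it was higher in FC than in HT by 1.12. For Insr it was lower in FC than in ST by a difference of -0.30 and than in HT by -0.28. With the slide as a fixed term none of these passed.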

How the results depend on the processing

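The calls were refitted under each alternative, and the settings that moved a count of receptor rows are given here. When the slide was a fixed block, the 7 rows of HT against FC on SC became 4, and on CM the 7, 6 and 8 rows of HT against FC, HT against ST and ST against FC became 2, 1 and 1; the 3 diet calls in FC became 0, as did the 2 and 3 differences of the diet effect between FC and ST and between FC and HT. With the slide as a random block these last 3 counts became 1 each. With a 2-fold threshold added, the region counts became 3 and 1 for HT and ST against FC on SC, and 4, 3 and 3 on CM. Without array weights, HT against ST on SC had 5 rows and the diet effect differed between FC and HT in 1, and with only the arrays of the regions compared it differed between FC and ST in 1. At the study's thresholds, 1 row was called in FC with 75th percentile scaling, and 1 in FC and 1 in ST when probe sequences were kept apart. At an adjusted p under 0.05 in ST, 1 row was called with an offset of 50, when only spots well above background were kept, and with sequences kept apart. The cause was not tested. Leaving out each array gave 6 to 8, 3 to 4 and 0 to 3 rows for HT against FC, HT against ST and ST against FC on SC, 6 to 7, 6 to 8 and 7 to 9 on CM, 2 to 4, 0 to 2 and 0 at an adjusted p under 0.05 for diet in FC, ST and HT, 0 to 1, 0 and 0 at the study's thresholds, and 1 to 4, 2 to 3 and 0 for the differences of the diet effect. Among the called region differences on SC and diet differences in FC, the following changed sign. The Lepr row's HT against FC difference was -0.053 on A_55_P2177911, the Insr difference 0.0047 on A_52_P494514, and the Glp1r diet difference in FC -0.077 with a fixed slide block. Among the other called values, compared with this block and by sequence only, Glp1r went to 0.50 for ST against FC on CM and to -0.09 for its diet effect in FC against HT, and Hcrtr2 to -0.03 for HT against FC on CM, all with the block, while Insr for HT against ST on CM went to 0.17 on A_52_P494514 (adjusted p = 0.036). The Lepr NM_010704 diet effect, larger in FC than in ST on the row, was the smaller in FC on A_55_P2177911 (0.28 in FC and 0.82 in ST). The mouse is a true pairing, and without the replicate block the counts were 7, 4 and 2 between regions on SC and 3, 0 and 0 for diet, so that it moved no count by over 1.5 times.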
